A study of Rattus norvegicus with 10 samples.

Results

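The 9 genes described here encode the proteins of the microfibrils of the aortic wall: the fibrillins (Fbn1, Fbn2), the microfibril-associated proteins (Mfap2, Mfap4, Mfap5) and the latent TGF-beta binding proteins (Ltbp1, Ltbp2, Ltbp3, Ltbp4). Their probe sets were found by name: every probe set annotated to 1 of these symbols was taken, which gave 10 probe sets of the 15866 tested and 9 of 10411 named genes. Fbn1 had a pair of probe sets and each of the other 8 genes had 1. Expression was measured in abdominal aorta of Brown Norway (BN) and LOU rats, both inbred strains, with 5 Affymetrix arrays per strain, whose probes lie toward the 3′ end of each transcript. No rat was given a treatment, every array was labelled with an age of 5 weeks, and the growth notes put the upper limit of housing at 18 weeks. Sex is not stated in the labels used here. The extraction notes mention thoracic as well as abdominal aorta, while the tissue label of each array is abdominal. Nothing in the labels ties an array to a rat of its own, so p-values measure only the spread between these arrays. The series title places the strain comparison in a study of the genetics of arterial phenotypes of the BN rat.

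Fibrillin molecules assemble outside the cell into beaded microfibrils, which serve as the scaffold on which elastin is laid down in the elastic lamellae of the aorta. Microfibril-associated glycoproteins bind along these fibres, and latent TGF-beta binding proteins (LTBPs) tether the inactive form of the growth factor TGF-beta to them. Mutations of human FBN1 cause Marfan syndrome, with dilatation and dissection of the aorta.

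The values are linear signals scaled to a common mean, and differences are BN minus LOU on the log2 scale, tested with limma and adjusted over all 15866 probe sets. A signal counted as above background when it exceeded the 95th percentile of the bacterial control probe sets on its array. Between 69.7% and 81.9% of probe sets did so, and median signals ran from 97.4 to 105. All 10 measured smooth muscle markers, 8 of 8 endothelial and 13 of 13 adventitial fibroblast markers were above background on every array, as were 8 of 9 adipocyte, 4 of 8 brown adipocyte, 7 of 12 nerve and 4 of 10 leukocyte markers. Of 9 striated muscle markers, 4 were above background on every array. The adipocyte marker Lep, the leukocyte marker Itgam and the striated muscle markers Myh4 and Pvalb were above background on no array. BN array 3 stood apart in nerve and Schwann cell markers (mean log2 deviation 2.27) and LOU array 1 in leukocyte markers (1.60).

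No probe set of the 9 genes passed the test at an adjusted p of 0.05 (0 of 10, where 0.788% of all probe sets passed), and the smallest adjusted p was 0.223, for Ltbp1. Read by gene, 0 of 9 passed, against 0.864% of all genes in either direction and 0.586% lower in BN. At an unadjusted limma p under 0.05, 3 of the 9 genes were lower in BN (Ltbp1, Ltbp2 and Mfap4). Such a p was reached by 13.8% of all genes in either direction and, with BN lower, by 8.09% of all probe sets. By the brightest probe set of a gene, the mean log2 signal was lower in BN for 9 of 9 genes, with a median difference of −0.35 on the log2 scale. This counts Fbn2, which was above background on only 2 arrays and turned sign with a floor on dim signals. Of all 10411 genes, 52.4% were lower, with a median of −0.02. For the 8 genes above background on all arrays the median difference was −0.31, and the range was −0.74 to −0.20. In whole-tissue RNA, fewer cells of a type and less RNA per cell cannot be told apart. In simulated arrays, 5 against 5, a log2 change of 0.5 was called in 6.5% of cases and a log2 change of 1 in 43.9%. These shares are averages over probe sets drawn from all 15866, dim ones included, and are not rates for the 9 genes.

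**Figure D1:**
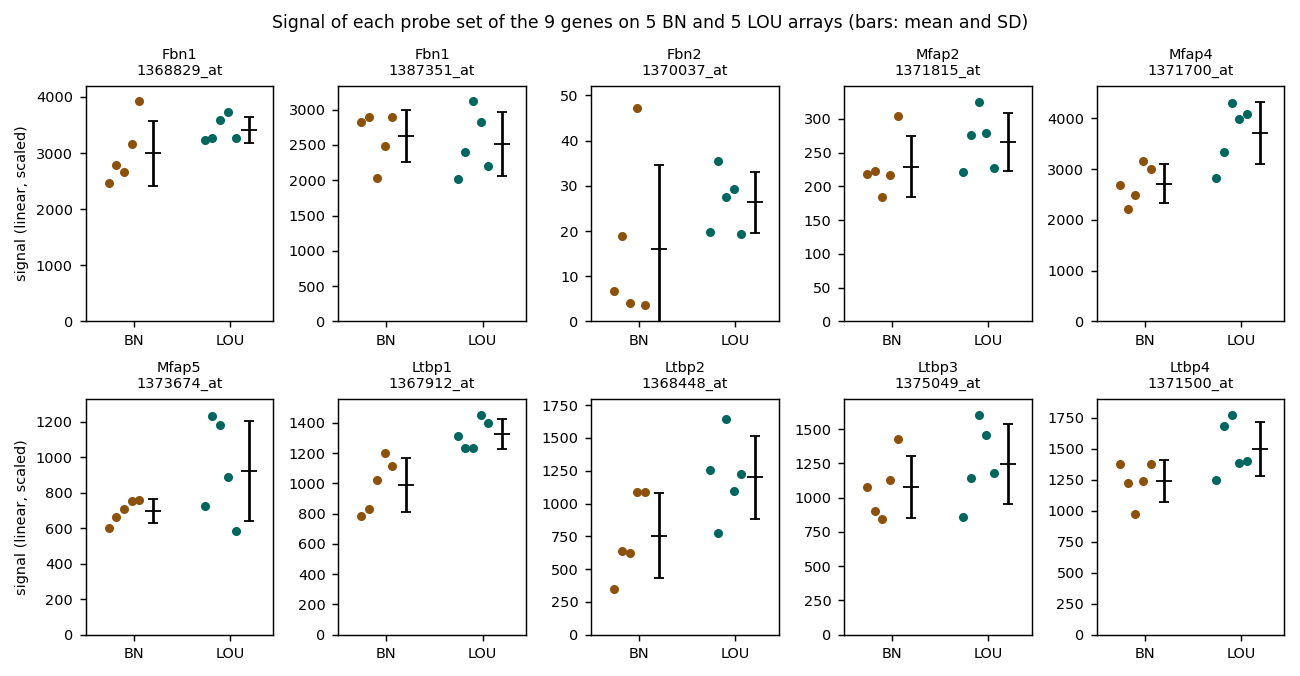
Linear scaled signal of each of the 10 probe sets on the 5 BN arrays (brown, left) and the 5 LOU arrays (green, right), with points in array order and bars for the mean and SD of each strain (the Fbn2 bar in BN is cut at 0). The strains separate without overlap for Ltbp1 only, at 786.7 to 1198.8 in BN and 1234.6 to 1450.4 in LOU.

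Ltbp1, which anchors the latent TGF-beta complex to fibronectin and fibrillin microfibrils, showed the clearest separation of the strains. Because Ltbp1 and Ltbp2 gave the smallest p and the largest difference among the members measured above background, the 250 bases before their annotated starts are shown, from the RefSeq annotation of GRCr8, an assembly made from a BN rat, with every searched motif in capitals.
Ltbp1 (chr6:26177302-26177551, minus strand): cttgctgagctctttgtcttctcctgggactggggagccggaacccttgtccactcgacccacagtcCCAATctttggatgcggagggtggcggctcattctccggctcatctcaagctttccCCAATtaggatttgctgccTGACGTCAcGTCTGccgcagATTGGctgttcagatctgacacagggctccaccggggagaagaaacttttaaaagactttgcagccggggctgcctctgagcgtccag
Ltbp2 (chr6:110257299-110257548, minus strand): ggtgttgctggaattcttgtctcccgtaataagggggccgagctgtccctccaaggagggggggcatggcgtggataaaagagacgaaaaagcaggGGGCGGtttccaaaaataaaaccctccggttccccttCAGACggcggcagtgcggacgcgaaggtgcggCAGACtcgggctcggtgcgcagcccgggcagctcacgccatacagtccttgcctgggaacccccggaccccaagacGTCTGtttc
Promoters of 8 of the 9 genes were found in the table, all but Mfap4. Both strands were searched for the cAMP response element TGACGTCA, the AP-1 site TGACTCA, the CCAAT box, the GC box GGGCGG, the TATA box TATAAA and the Smad-binding motif CAGAC. The Ltbp1 window holds the cAMP response element, which 1 of the 8 windows and 1.59% of all 33469 windows of the same length hold, and also 3 CCAAT boxes. The Ltbp2 window holds 3 copies of CAGAC and 1 GC box, motifs found in 42.9% and 30.5% of all windows, and CAGAC also occurs before Fbn1, Fbn2, Mfap2 and Ltbp1. CCAAT occurs before Ltbp1, Ltbp4 and Mfap5 (34.0% of all windows) and the GC box before Ltbp2, Ltbp3, Ltbp4 and Mfap2. None of the 8 windows holds the AP-1 or TATA letters, which 4.05% and 12.9% of all windows do. Such matches describe the letters of one reference strain and were not set against LOU sequence, which was not analysed here.

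Ltbp1 gave signals of 786.7, 829.1, 1025.6, 1198.8 and 1113.4 on BN arrays 1 to 5, against 1310.6, 1236.3, 1234.6, 1450.4 and 1402.3 on LOU arrays 1 to 5. Every BN array lay below every LOU array, with BN arrays 1 and 2 lowest. It was the only 1 of the 10 probe sets whose strains did not overlap, where 4.18% of all probe sets did not overlap in either direction and 2.77% did so with BN lower. The mean was 991 ± 178 in BN and 1327 ± 97.4 in LOU (SD, n = 5 each). The difference was −0.44 on the log2 scale (SE 0.14, 95% interval −0.76 to −0.12, limma adjusted p = 0.223). Its unadjusted p stayed under 0.05 in each of 21 alternative fits, and its adjusted p in them ran from 0.119 to 0.624.

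Ltbp2, which binds fibrillin microfibrils but not latent TGF-beta, had the widest spread of the LTBPs. Its signals were 351.7, 635.1, 620.4, 1088.8 and 1085.9 in BN, against 1255.8, 776.7, 1646.5, 1094.2 and 1225.2 in LOU. BN arrays 1 to 3 lay below the lowest LOU array and BN arrays 4 and 5 lay inside the LOU range. The mean was 756 ± 323 in BN and 1200 ± 314 in LOU (SD, n = 5 each), a difference of −0.74 on the log2 scale (SE 0.32, 95% interval −1.46 to −0.02, limma adjusted p = 0.363). Without BN array 1, the lowest, the difference was −0.50 (limma adjusted p = 0.497), and without LOU array 3, the highest, it was −0.62 (limma adjusted p = 0.564).

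Ltbp3, which like Ltbp1 carries latent TGF-beta, had signals of 1079.7, 902, 847.3, 1128.9 and 1428.9 in BN, against 855.8, 1139.5, 1599.5, 1456.5 and 1182 in LOU. Only BN array 3 lay below the LOU range, and the other 4 lay inside it. The log2 difference was −0.20 (SE 0.20, 95% interval −0.66 to 0.25, limma adjusted p = 0.709). With 1 array left out it ran from −0.33 without LOU array 1 to −0.10 without LOU array 3. Ltbp4, which binds latent TGF-beta weakly and takes part in elastic fibre assembly, had signals of 1376.3, 1222.9, 971.5, 1242.7 and 1377.6 in BN, against 1250.4, 1678.2, 1768.9, 1380.6 and 1401.4 in LOU. Here 3 BN arrays lay below the lowest LOU array and 2 inside the LOU range. The log2 difference was −0.27 (SE 0.15, 95% interval −0.60 to 0.05, limma adjusted p = 0.468). For both genes the interval holds 0 and also differences as large as that of Ltbp1.

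Fbn1, the main fibrillin of postnatal microfibrils, was read by a pair of probe sets that gave different pictures. The brighter had signals of 2458.2, 2785, 2657, 3153.8 and 3924.8 in BN, against 3233.4, 3261.7, 3580.5, 3734.1 and 3263.2 in LOU. BN arrays 1 to 4 lay below the lowest LOU array, and BN array 5 lay above the highest. The log2 difference was −0.21 (SE 0.14, 95% interval −0.52 to 0.11, limma adjusted p = 0.582). Without BN array 5 it was −0.31, with a limma adjusted p of 0.277. The dimmer had signals of 2823.7, 2896.5, 2031.1, 2482.6 and 2897.1 in BN, against 2016.6, 2398.1, 3125.1, 2826.2 and 2203.9 in LOU. All 5 BN arrays lay inside the LOU range, and the log2 difference was 0.07 (95% interval −0.29 to 0.43, limma adjusted p = 0.887). The strain differences of the pair were 0.28 apart on the log2 scale (95% interval −0.13 to 0.68, limma adjusted p = 0.643 over 2372 such pairs, 0.506% of which passed).

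Fbn2, the fibrillin of developing tissue, was near or below background. Its signals were 6.8, 19, 4, 47.2 and 3.6 in BN, against 19.9, 35.6, 27.6, 29.3 and 19.4 in LOU, and only BN array 4 and LOU array 2 were above the background level of their array, which ran from 21.2 to 49.2. The log2 difference of −1.40 (95% interval −2.85 to 0.06, limma adjusted p = 0.399) turned to 0.08 when signals under 32 were set to 32, so no direction is given for Fbn2.

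Mfap4, a fibrinogen-related glycoprotein of elastic fibres, had signals of 2687.9, 2210.9, 2493.9, 3172 and 2999.6 in BN, against 2826.7, 3331.8, 4311.5, 3981.5 and 4084.1 in LOU. BN arrays 1 to 3 lay below the lowest LOU array, and the other 2 inside the LOU range near its lower end. The mean was 2713 ± 385 in BN and 3707 ± 612 in LOU (SD, n = 5 each). The difference was −0.45 on the log2 scale (SE 0.16, 95% interval −0.80 to −0.09, limma adjusted p = 0.257), and with each array left out in turn it ran from −0.54 to −0.37.

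Mfap2 and Mfap5 encode the small microfibril-associated glycoproteins that bind fibrillins. Mfap2 had signals of 217.6, 222.8, 183.7, 216.5 and 304.4 in BN, against 221.9, 275.6, 325.2, 279.6 and 226.8 in LOU. The strains overlapped, with 3 BN arrays below the LOU range. The log2 difference was −0.22 (SE 0.17, 95% interval −0.59 to 0.15, limma adjusted p = 0.610), and −0.14 without LOU array 3. Mfap5 had signals of 601.1, 666, 709.8, 754.3 and 762.2 in BN, against 723.4, 1233.3, 1181, 891.7 and 583.7 in LOU. All 5 BN arrays lay inside the LOU range, which was wide, and the coefficient of variation was 9.56% in BN and 30.6% in LOU. The log2 difference was −0.35 (SE 0.21, 95% interval −0.82 to 0.12, limma adjusted p = 0.522), −0.23 without LOU array 2 and −0.50 without LOU array 5.

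**Figure D2:**
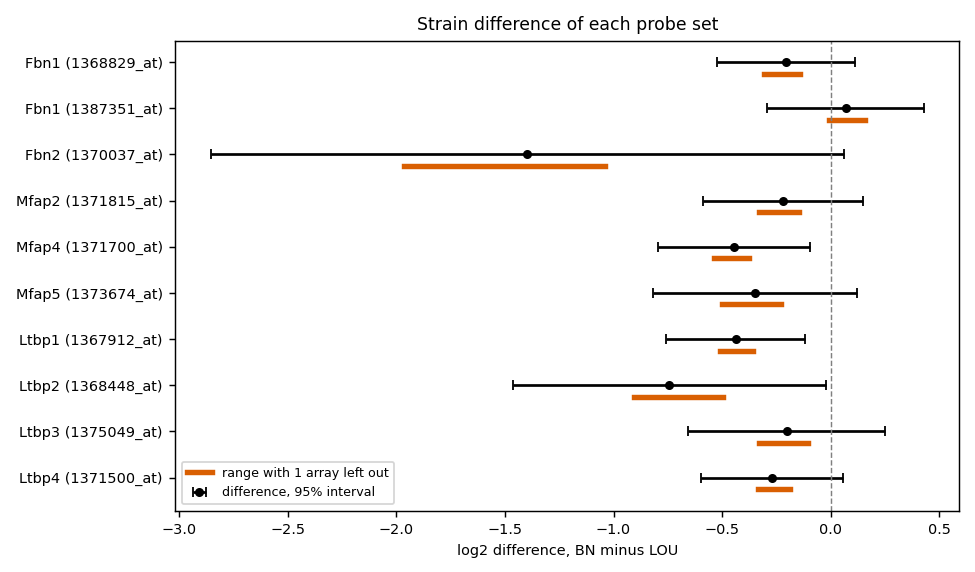
Difference in log2 signal, BN minus LOU, of each of the 10 probe sets with its 95% interval (black), and the range of the difference with 1 array left out at a time (orange). The intervals of Ltbp1, Ltbp2 and Mfap4 lie below 0, those of the other 7 probe sets include 0, and no adjusted p is under 0.223.

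The low values were shared by the same arrays across genes. Of the 9 probe sets other than that of Fbn2, 6 were among the 3 lowest of their 10 arrays on BN array 1, 7 on BN array 2 and 8 on BN array 3, but 2 on BN array 4 and 0 on BN array 5. The mean centred log2 level of the 8 genes was −0.38, −0.31, −0.34, −0.00 and 0.14 on BN arrays 1 to 5, against −0.03, 0.15, 0.44, 0.25 and 0.09 on LOU arrays 1 to 5. BN arrays 4 and 5 thus lay inside the LOU range, and LOU array 3 was highest, with the top signal for 6 of the 9 probe sets. Ltbp1 and Ltbp2 followed each other over the 10 arrays with a Pearson r of 0.83 (Spearman rho 0.76, and r 0.71 after centring each strain). Other member pairs did so as closely, such as Mfap2 with Ltbp3 (0.87, and 0.85 after centring) and Fbn1 with Ltbp2 (0.83 and 0.76). Ltbp1 and Ltbp4 did so less, with r 0.31 and, after centring, −0.29. These correlations are descriptions over 10 arrays that share their scaling. BN arrays 1 to 3 also had the 3 highest background levels, 49.2, 38.4 and 36.0, against 29.3 and 21.2 on BN arrays 4 and 5 and 26.2 to 33.3 on the LOU arrays. The share of probe sets above background was 69.7%, 73.0% and 76.3% on BN arrays 1 to 3, 79.0% and 81.9% on BN arrays 4 and 5, and 76.0% to 81.5% on the LOU arrays. The part of background in the members' values was not tested.

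**Figure D3:**
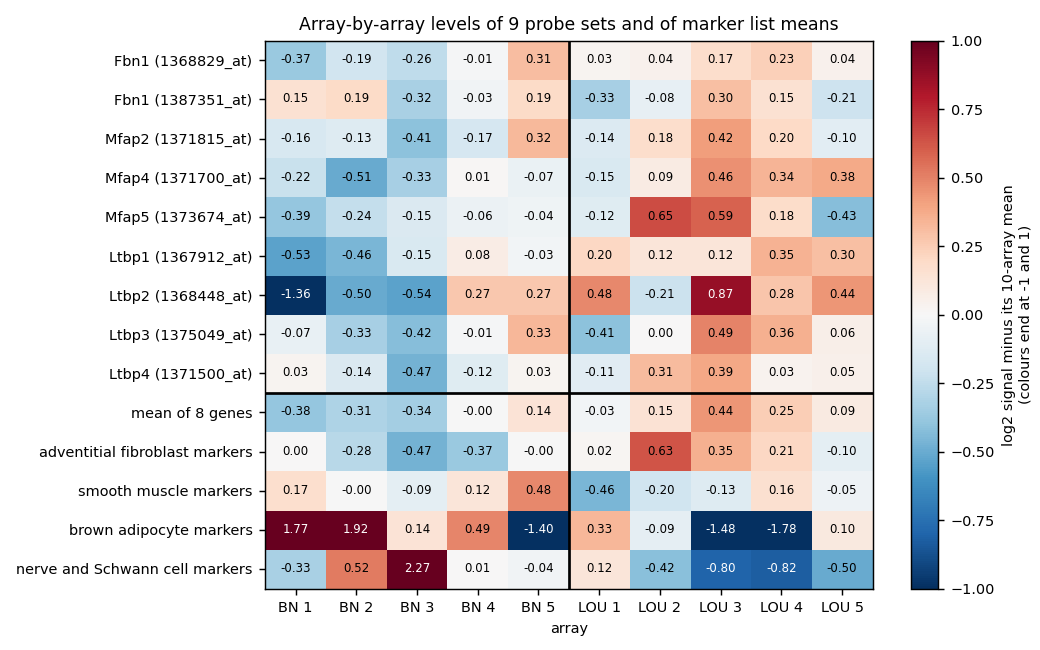
Log2 signal of 9 probe sets, minus the probe set's mean over the 10 arrays, with the mean of the 8 genes and of 4 marker lists below; columns are BN arrays 1 to 5, then LOU arrays 1 to 5, and colours end at −1 and 1. BN arrays 1 to 3 are below the mean for most probe sets, and LOU arrays 3 and 4 are above it for all 9.

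Marker genes of several cell types also differed between the arrays. Of all genes, 52.4% had a lower mean in BN and 0.864% passed the test. Adventitial fibroblast markers, 10 of 13 with a lower mean in BN and a median log2 difference of −0.49, had list means of 0.00, −0.28, −0.47, −0.37 and −0.00 on BN arrays 1 to 5, against 0.02, 0.63, 0.35, 0.21 and −0.10 on LOU arrays 1 to 5, and 1 of them, Ogn, passed the test. Smooth muscle markers, 9 of 10 with a higher mean in BN and a median of 0.25, had means of −0.09 to 0.48 in BN and −0.46 to 0.16 in LOU, and 0 passed. Brown adipocyte markers had a higher mean in BN for 8 of 8, with a median log2 difference of 1.08, and 0 passed. Their list means ran from −1.40 to 1.92 in BN and from −1.78 to 0.33 in LOU, with BN arrays 1 and 2 highest. Striated muscle markers were the 1 marker list whose array means did not overlap. These means ran from 0.10 to 0.72 in BN and from −0.75 to −0.16 in LOU. Of the 9 genes in that list, 5 had a higher mean in BN and 4 a lower, and 4 were above background on every array. Their log2 differences ran from −0.43 to 3.73, with a median of 0.34, and 0 passed. Nerve and Schwann cell markers had a higher mean in BN for 11 of 12, with a median of 0.85, and the myelin gene Mbp passed. Leukocyte markers had a lower mean in BN for 8 of 10, with a median of −0.45, and 0 passed. With the fibroblast list mean as a covariate, the log2 difference was 0.08 for Mfap2, 0.05 for Mfap5, 0.06 for Ltbp3 and 0.02 for Ltbp4. Each of these had its sign turned, with limma adjusted p-values of 0.974 to 0.990. In the same fit the difference was −0.57 for Ltbp1 (95% interval −1.03 to −0.11, limma adjusted p = 0.624) and −1.04 for Ltbp2 (limma adjusted p = 0.688). For Mfap4 it was −0.41, and for the brighter Fbn1 probe set −0.14 (limma adjusted p = 0.768 and 0.951). The fibroblast list mean itself differed by strain, at −0.22 in BN and 0.22 in LOU. With it in the fit, 5 of the 15866 probe sets passed, against 125 with strain alone. With the adipocyte list mean the members kept their signs, at −0.42 for Ltbp1, −0.71 for Ltbp2, −0.43 for Mfap4 and −0.19 for Fbn1. The part of these cell types in the members' values was not tested beyond these fits.

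**Figure D4:**
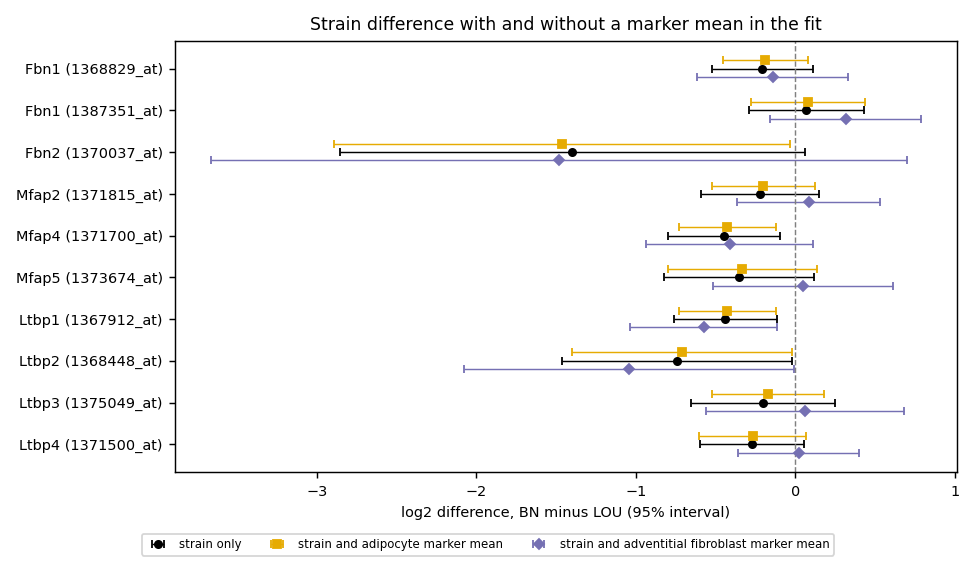
Log2 difference, BN minus LOU, with 95% intervals, of each of the 10 probe sets in 3 fits: strain alone (black), strain with the adipocyte marker mean (yellow) and strain with the adventitial fibroblast marker mean (purple). With the fibroblast mean, Mfap2, Mfap5, Ltbp3 and Ltbp4 lie at 0.02 to 0.08, and Ltbp1 lies at −0.57 (limma adjusted p = 0.624).

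Of the genes that act with the microfibrils, Mfap3 and Bmp4 passed the test. For all the genes listed below the adjusted p is over the 10411 genes. Of 27 measured elastic fibre and microfibril partners, 17 had a lower mean in BN, where 52.4% of all genes did. The median was −0.19, and 1 of the 27 passed, where 0.864% of all genes did. At an unadjusted p under 0.05 there were 10 of the 27, where 13.8% of all genes were. The gene that passed was Mfap3, a membrane glycoprotein named for its link to microfibrils, with signals of 68.5, 70.2, 93.6, 92.2 and 104.5 in BN, against 32.9, 53.9, 32.4, 18.6 and 36.2 in LOU. All BN arrays but only 3 LOU arrays exceeded the background level. The strains did not overlap, as for 4.18% of all probe sets in either direction. Mfap3 rose in BN by 1.36 on the log2 scale (limma adjusted p = 0.0451). The call held in 1 of 10 fits without 1 array and was lost with the fibroblast list mean as a covariate (limma adjusted p = 0.314). In the fit with that covariate 4 of the 10411 genes passed, against 90 with strain alone. The fibroblast list mean itself differed by strain, and why the Mfap3 call was lost was not tested. The Mfap3 difference was larger in that fit than with strain alone. With the mean of its probe sets, the other of which was above background on no array, the difference was 0.32 (limma adjusted p = 0.669).

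Elastin itself (Eln) had means of 9903 ± 981 in BN and 10149.7 ± 595 in LOU (SD, n = 5 each), a log2 difference of −0.04 (95% interval −0.28 to 0.20, limma adjusted p = 0.896). The log2 difference was −0.41 for Lox, which cross-links elastin (−0.52 by its other probe set), −0.35 for Fbln5, which guides elastin to the microfibrils, and −0.26 for Emilin1, a glycoprotein at the interface of both. Their limma adjusted p-values were 0.542, 0.382 and 0.725. Furin, a protease that processes profibrillin and the TGF-beta precursors, had signals of 324.8, 367.7, 287, 271.4 and 232.8 in BN, against 201.8, 215.9, 188.5, 182.2 and 212.4 in LOU. The strains did not overlap, as for 4.18% of all probe sets in either direction. The difference of 0.55 had a limma adjusted p of 0.107.

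Of 21 measured TGF-beta and BMP ligands and receptors, the cargo and targets of this matrix, 14 had a lower mean in BN. This count holds Mstn and Inhbb, which were above background on no array. Of all genes, 52.4% had a lower mean in BN. The median of the 21 was −0.19, and 1 of them passed, where 0.864% of all genes did. Bmp4, a ligand whose prodomain binds fibrillin, had signals of 118.3, 84.4, 80.7, 101.5 and 112.1 in BN, against 182.3, 312.5, 335.5, 226.9 and 217.9 in LOU. Every BN array lay below every LOU array, as for 2.77% of all probe sets. Bmp4 fell in BN by 1.34 on the log2 scale (SE 0.19, limma adjusted p = 0.0137). It passed in 10 of 10 fits without 1 array, but not with the fibroblast list mean as a covariate (−0.89, limma adjusted p = 0.251).

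Tgfb1, a ligand whose latent form Ltbp1 and Ltbp3 carry, had signals of 119, 131.4, 114, 165.6 and 132.2 in BN, against 187.1, 199.8, 210.8, 194 and 195 in LOU. The strains did not overlap, with BN lower, as for 2.77% of all probe sets. The difference of −0.59 had a limma adjusted p of 0.0585, which was under 0.05 in 6 of 22 alternative fits. Tgfb2 differed by −0.23 (−0.03 without BN array 2) and Tgfb3 by −0.10, with limma adjusted p-values of 0.710 and 0.866. Of 22 measured Smads and TGF-beta response genes, 17 had a lower mean in BN with a median of −0.18. Of all genes, 52.4% had a lower mean in BN. None of the 22 passed the limma test over all genes, where 0.864% of all genes did. At an unadjusted limma p under 0.05 there were 7 of the 22, where 13.8% of all genes were.

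**Figure D5:**
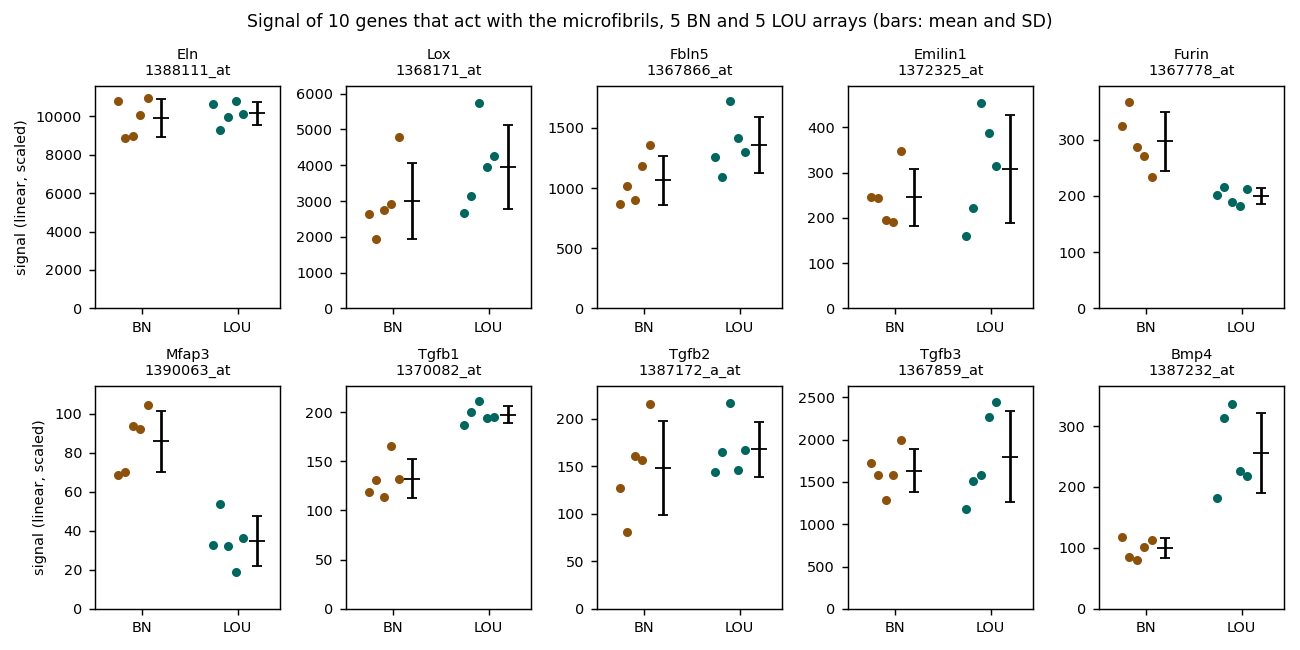
Linear scaled signal of 10 partner genes on the 5 BN arrays (brown, left) and the 5 LOU arrays (green, right), with bars for the mean and SD of each strain. Bmp4 and Tgfb1 lie lower and Furin and Mfap3 higher on every BN array, and the other 6 genes overlap. Of all probe sets, 4.18% did not overlap in either direction. Mfap3 is shown because it passed the test.

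The genes whose log2 signals followed each member most closely over the 10 arrays were taken from 7369 other genes above background on all of them, by Pearson r as a description. For Ltbp1 these were Cnbp (r 0.97), Hmgn3 (0.95) and Pnn (0.94), which stayed at 0.92, 0.87 and 0.90 after each strain was centred. For Ltbp2 they were Lig4 (0.96), Bbip1 (0.95) and the elastic fibre gene Fbln5 (0.92). For Mfap2 they were the collagen gene Col5a1 (0.95), the gelatinase gene Mmp2 (0.94) and Glo1 (0.94), and for Mfap5 Rnase4 (0.92), the decorin gene Dcn (0.90) and Alg10 (0.86). Mfap4 was followed by Ckap4 (0.97), P2ry2 (0.96) and Cdh11 (0.96), and Fbn1 by Macf1 (0.95), Arhgap17 (0.94) and Exosc1 (0.94). Ltbp3 was followed by Iqgap1 (0.96), Mier1 (0.96) and Dap (0.95), and Ltbp4 by Mt2A (0.95), Ctsa (0.94) and C1r (0.93).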

How the data were processed

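Total RNA of abdominal aorta was measured on 10 Affymetrix arrays, and groups follow the strain in the labels. The deposited values are array intensity, 1 per probe set. RMA is named, with no version, per the submitters' processing notes. The deposited intensities run from 0 to 22219.9 with a 2% trimmed mean of 200.05 to 200.06 on each array, so they were treated as linear signals that share a trimmed mean. The 4 values of 0 were set to 0.1 before log2. All columns were mapped to samples.

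After 57 controls were left out, 15866 probe sets entered limma 3.58.1 under R 4.3.3 (lmFit, eBayes, strain as the only term, two-sided, Benjamini-Hochberg). Probe sets numbered 12783 with 1 gene symbol, 312 with several and 2771 with none, and only those with 1 were named. Symbols were updated through the RefSeq table of GRCr8 (12748 by gene identifier, 2 by accession, 33 kept as listed). A gene was read from its brightest probe set, giving 10411 genes. The strain difference within 2372 pairs of probe sets of a gene was tested likewise. The background level of an array was set at the 95th percentile over its 45 bacterial controls. The number of arrays limits the precision.

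Named were all member probe sets, partner genes past the test (up to 6 per list), 10 fixed partners (Efemp2 has no probe set here) and the 3 genes most correlated with each member. The members and lists were chosen with earlier results of these data known. On simulated arrays (200 changed of 15866 probe sets, 20 runs) the test recovered 6.5%, 43.9%, 78.9% and 90% of log2 changes of 0.5, 1, 2 and 3, with 4.83% false among its calls. For the pairs the shares were 6.5%, 42.2%, 76.8% and 90.8%, with 5.26% false.

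Arrays of the same number did not deviate together (r −0.06 to 0.17 over 10001 probe sets), so numbers were not taken as pairs. Alternatives were other scalings, filters for dim signals, variance trend, array weights, replicate block, marker covariates, and arrays left out. Summaries used pandas 2.3.3 and numpy 2.4.6 under Python 3.11.15, and plots matplotlib 3.10.9.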

Additional observations from a re-analysis of the deposited data

How the results depend on the processing

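None of the 10 member probe sets passed limma's test in any alternative. Over 209 alternative values of them, 203 kept their sign and 6 turned: Fbn2 with a floor of 32 (0.081), the dimmer Fbn1 probe set without LOU array 1 (−0.0061, with 0.158 the highest value without 1 array), and with the fibroblast covariate Mfap2 (0.083), Mfap5 (0.050), Ltbp3 (0.062) and Ltbp4 (0.022). Among partners, Eln turned with median centring (0.012), without BN array 2 (0.000399, with −0.076 the lowest without 1 array) and without both BN array 3 and LOU array 1 (0.013), and Tgfb3 turned without LOU array 5 (0.026, lowest −0.238). The cause was not tested.

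The background counts moved more. Of 125 probe sets and 90 genes that passed, the counts were 253 and 172 without the dimmest 40% of probe sets, 204 and 138 with a pseudocount of 16, 242 and 161 with a variance trend, 199 and 191 with the adipocyte covariate, 5 and 4 with the fibroblast covariate, and 75 and 59 with BN array 3 and LOU array 1 both left out. With 1 array left out they ran from 63 to 127 and from 35 to 86, both lowest without LOU array 3. Of pairs, 12 passed, against 7 with quantile normalization, 19 with both probe sets above background, 27 with a floor of 32 and 6 to 11 with 1 array left out.

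In the fit with a replicate block, 23 probe sets, 12 genes and 0 pairs passed (219 pairs at an unadjusted limma p under 0.05), Bmp4 and Mfap3 did not pass (adjusted p = 0.171 and 0.207), and 1 of 10 arrays correlated best with its own number. Median centring was not run for pairs, since it cannot move a difference within an array. Signals near background, as for Fbn2 and Mfap3, have little precision.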
